A study of Saccharomyces cerevisiae BY4741 with 12 samples.

Results

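The noncoding RNA rows of the expression sheet were its annotated rows that carry an RNA gene's name in place of an open reading frame's systematic name. There were 164 of them among 6632 annotated rows, in a sheet of 7409 rows. They held 61 nuclear tRNA genes, 45 box C/D and 29 box H/ACA small nucleolar RNAs (snoRNAs), 9 regulatory long noncoding RNAs, 6 copies of 5S rRNA, 4 spliceosomal RNAs, 3 mitochondrial tRNAs and 2 mitochondrial rRNAs. The others were the RNAs of RNase P (RPR1), RNase MRP (NME1) and telomerase (TLC1), the RNA of the signal recognition particle (SCR1), and RNA170. Their names were taken from the files, and 141 matched a gene of the RefSeq annotation, 103 by symbol and 38 tRNA genes by amino acid, chromosome and length. The matched rows had the RefSeq length in 141 of 141 cases, but for the 38 tRNA genes an equal length was a condition of the match.

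Polyadenylated RNA of Saccharomyces cerevisiae BY4741 was measured by strand-specific sequencing in 4 strains with 3 libraries each. The strains were set2Δ, which lacks the H3K36 methyltransferase gene SET2 and carried the empty plasmid pRS415, set2-Y149F and set2-Y236F, which are set2Δ cells with that mutant form of SET2 on pRS415, and the WT, for which the methods name no plasmid. The Y149F change, of a tyrosine to phenylalanine, leaves H3K36 trimethylation in place, removes dimethylation and lowers monomethylation. The Y236F change removes trimethylation and leaves mono- and dimethylation. Cultures at 30 °C were brought to an OD600 of 0.2 in YPD or SD medium and harvested at 0.8, which the study describes as nutrient-rich conditions for the WT and the mutants alike. The sources do not name the medium of each strain, so that a difference in medium and one in strain cannot be told apart.

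The deposited FPKM values (reads scaled to the length of the gene in kilobases and to the reads of the library) are 1 mean per strain. Each mean could be split, in 1 way only, into whole reads of 2 libraries, for all 6632 annotated rows in all 4 strains. The 2 libraries are called A and B here, since nothing tells which of the 3 labelled replicates they were. These 8 libraries held 17122394 to 23220184 reads on annotated rows. SET2 RNA, read as a check of the labels, was at 0.0704 and 0.310 FPKM in set2Δ, 265 and 242 in set2-Y149F, 256 and 286 in set2-Y236F, against 29.5 and 28.7 in WT. Both point mutants thus had far more SET2 RNA than the WT. A difference is given as log2(FPKM + 1) ± SE from 1 limma fit over all 6632 rows with 2 libraries per strain, and called at an adjusted p under 0.05. The study speaks of independent experiments for its antisense transcripts, but the labels do not tie a library to a culture, so p-values measure the spread between these libraries, which may be technical.

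Most RNAs of these classes carry no lasting poly(A) tail. RNA polymerase III makes tRNAs, 5S rRNA, U6 and the RNAs SCR1 and RPR1, while snoRNAs and the other spliceosomal RNAs come mostly from RNA polymerase II precursors that are cut or terminated early and then trimmed by the exosome. A short tail is added to many of them while they are processed or degraded, and mature snoRNAs then act as guides: box C/D RNAs direct 2′-O-methylation of rRNA, and box H/ACA RNAs direct the conversion of uridine to pseudouridine. In poly(A)-selected libraries a level here is that of the RNA captured by the beads. A change in amount and a change in the tailed share cannot be told apart, nor can fewer cells with an RNA and less of it per cell.

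The noncoding rows made up 0.0672% to 0.101% of the reads that a library had on annotated rows. They took 951 and 1002 reads per 1000000 in set2Δ, 850 and 761 in set2-Y149F, 1008 and 864 in set2-Y236F, against 672 and 771 in WT. The WT libraries were the lowest apart from an overlap between WT library B and set2-Y149F library B. The median member had 15.1 reads per library, 94 members had a mean of at least 10 reads and 70 had fewer. Among the 3 classes with more than 10 members, nuclear tRNAs had a median of 2 reads per library, box C/D snoRNAs 18.6 and box H/ACA snoRNAs 96.4. LSR1, the U2 RNA of the spliceosome, had the most reads, 3141 per library.

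**Figure D1:**
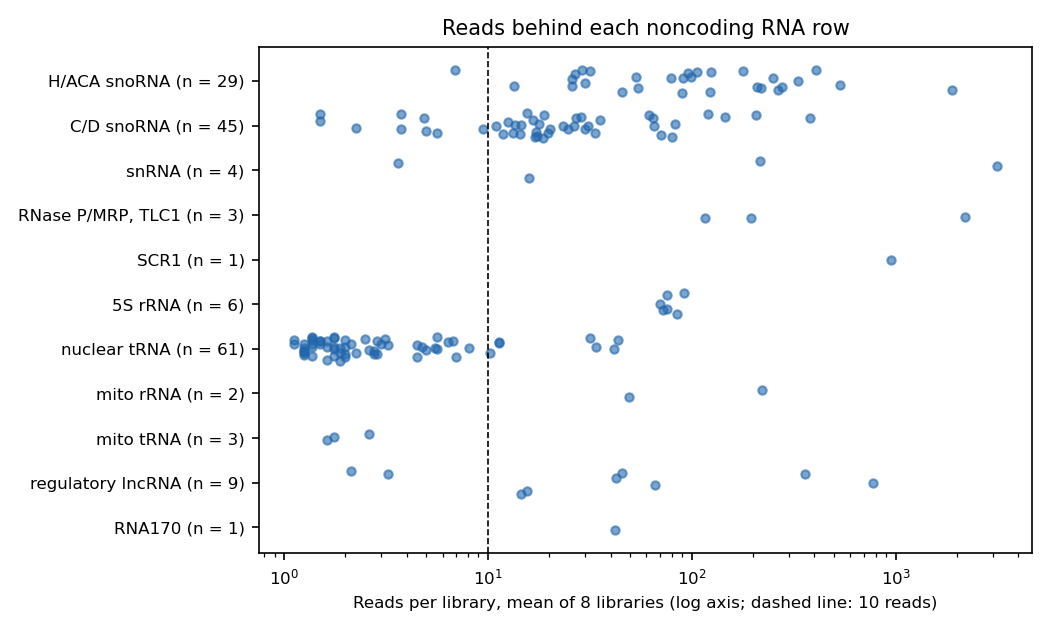
Mean reads per library over the 8 libraries (x axis, log scale) for each of the 164 rows, 1 point per row, by RNA class (y axis). The dashed line marks 10 reads, and 70 rows lie to its left, most of them nuclear tRNA genes.

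The sequences of the members to which the results below turn are given first, as RefSeq has them on the sacCer3 genome (assembly R64), 5′ to 3′. The first 2 are box H/ACA RNAs, snR44 (chrXII:856710-856920, plus strand, within the intron of RPS22B) and snR83 (plus strand), of which the last 100 of 306 bases are shown (chrXIII:626555-626654). Capitals mark an ACA that lies 3 bases before the annotated end, which snR83 has and snR44 does not have in this window. It was found in 14 of 29 H/ACA members (48.3%), 3 of 45 C/D members (6.67%) and 1.77% of 89-base windows of the genome, both strands read.
snR44: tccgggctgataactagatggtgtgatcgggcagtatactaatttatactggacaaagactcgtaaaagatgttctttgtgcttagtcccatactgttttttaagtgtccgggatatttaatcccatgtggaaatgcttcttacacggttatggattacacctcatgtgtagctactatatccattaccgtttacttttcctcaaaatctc
snR83: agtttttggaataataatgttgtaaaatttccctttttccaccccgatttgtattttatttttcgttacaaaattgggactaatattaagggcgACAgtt

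The next 3 are box C/D RNAs whose levels were lower in at least 1 mutant: snR24 (chrXIII:499984-500072, minus strand, within the intron of ASC1), snR57 (chrXII:794937-795024, minus strand) and snR70 (chrXVI:718887-719050, minus strand). Capitals mark the box C letters TGATGA within the first 20 bases, with at most 1 mismatch, and the box D letters CTGA within the last 15, and snR57 holds box C alone in these windows. Both boxes were found in 39 of 45 C/D members (86.7%), 0 of 29 H/ACA members and 0.408% of the genome windows, and with no mismatch in 34 of 45 (75.6%) and 0.0344% of windows.
snR24: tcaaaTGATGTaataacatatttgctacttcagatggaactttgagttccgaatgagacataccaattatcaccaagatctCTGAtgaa
snR57: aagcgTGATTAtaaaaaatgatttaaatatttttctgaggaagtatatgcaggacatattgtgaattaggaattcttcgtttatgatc
snR70: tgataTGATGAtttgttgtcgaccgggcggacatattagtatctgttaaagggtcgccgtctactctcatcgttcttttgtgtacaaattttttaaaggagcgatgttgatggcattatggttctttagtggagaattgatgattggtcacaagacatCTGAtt

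The last pair are the tRNA rows with the most reads among those called, tD(GUC)O (aspartate, chrXV:571958-572029, plus strand) and tL(CAA)C (leucine, with an intron, chrIII:90859-90972, plus strand). Capitals mark the anticodon.
tD(GUC)O: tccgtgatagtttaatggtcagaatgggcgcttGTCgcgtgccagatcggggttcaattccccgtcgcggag
tL(CAA)C: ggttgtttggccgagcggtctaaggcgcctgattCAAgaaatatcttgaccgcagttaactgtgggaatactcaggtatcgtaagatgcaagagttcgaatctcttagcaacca

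Across all members, called differences from the WT were mostly increases, whereas over all annotated rows decreases were the more frequent. In set2Δ, 28 of 164 members were higher than in WT and 10 lower, against 11.1% and 16.8% of all annotated rows. The set2-Y149F strain had 27 higher and 6 lower, against 18.1% and 23.2%, and the set2-Y236F strain had 40 and 6, against 16.0% and 21.9%. The share of members higher was thus 17.1%, 16.5% and 24.4%, the second of which lay below its background, and the share lower was 6.1%, 3.66% and 3.66%. The median log2 difference of the members was 0.27, 0.20 and 0.26 in set2Δ, set2-Y149F and set2-Y236F, beside -0.08, -0.04 and -0.02 over all rows. The 3 comparisons share the WT libraries. With limma-voom on the recovered reads, 18, 16 and 28 members were higher and 4, 4 and 0 lower.

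**Figure D2:**
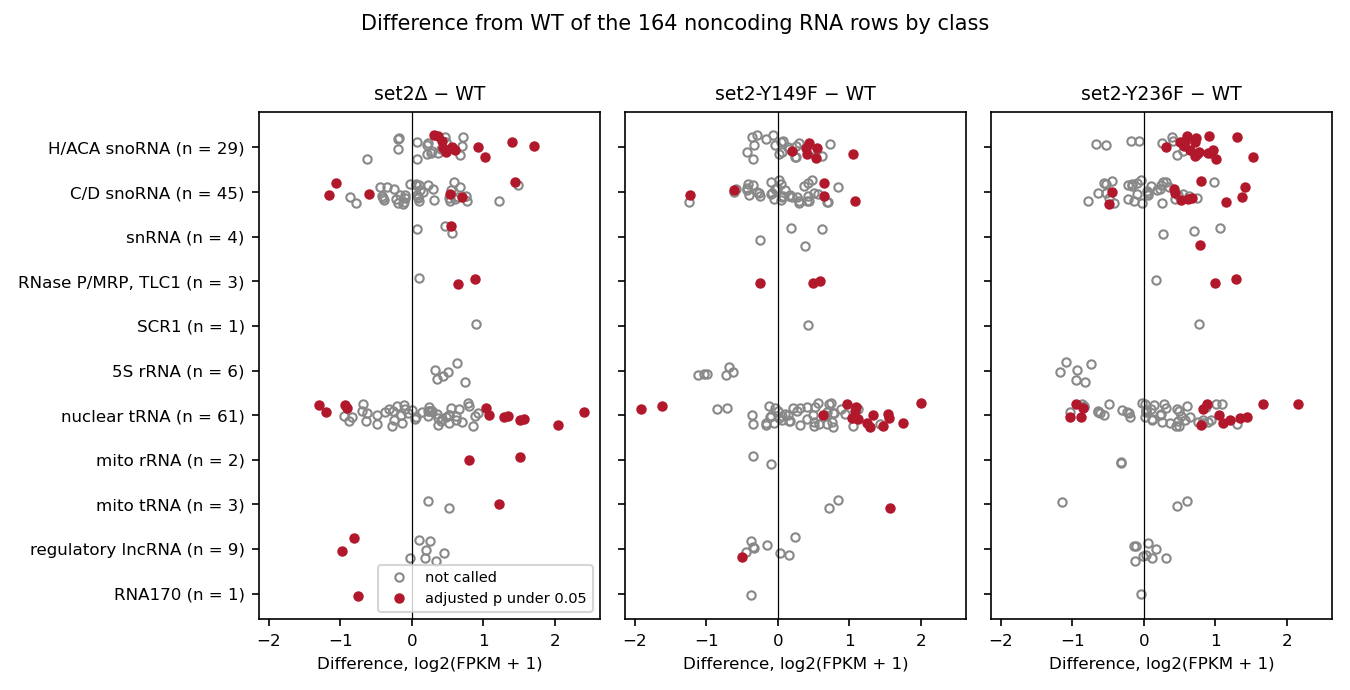
Difference from WT on the scale of log2(FPKM + 1) (x axis) for the 164 rows by RNA class (y axis), in set2Δ, set2-Y149F and set2-Y236F from left to right. Filled points have an adjusted p under 0.05. Filled H/ACA points lie right of 0 in every panel, 11, 7 and 18 of 29.

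Among nuclear tRNAs, box C/D and box H/ACA snoRNAs, the 3 large classes, the H/ACA RNAs had the largest share called higher than in WT in each mutant. It was 37.9%, 24.1% and 62.1%, against 11.1%, 18.1% and 16.0% of all rows. In set2-Y149F the share was thus not far above its background, and the tRNAs were close at 23%. The classes were not at equal depth, with medians of 96.4 reads per library for H/ACA RNAs, 18.6 for C/D RNAs and 2 for nuclear tRNAs. Of 29, the number higher than in WT was 11 for set2Δ, 7 for set2-Y149F and 18 for set2-Y236F, and none was lower, with medians of 0.41, 0.20 and 0.58. Summed over the class, H/ACA RNAs took 309 and 315 reads per 1000000 in set2Δ, 291 and 275 in set2-Y149F, 370 and 319 in set2-Y236F, against 225 and 230 in WT. Every mutant library was above both WT libraries.

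snR44, a pseudouridylation guide encoded in the intron of the ribosomal protein gene RPS22B, had 152 and 155 FPKM in set2Δ, 87.5 and 81.1 in set2-Y149F, 109 and 84.2 in set2-Y236F, against 62.6 and 52.5 in WT. No mutant library overlapped the WT. It was 2.67-fold higher in set2Δ (log2 difference 1.41 ± 0.13, adjusted p = 0.000386), by 1.47-fold in set2-Y149F (0.55 ± 0.13, adjusted p = 0.0128) and 1.68-fold in set2-Y236F (0.73 ± 0.13, adjusted p = 0.00401). Set2Δ also exceeded set2-Y149F (0.86 ± 0.13) and set2-Y236F (0.67 ± 0.13), both called, the second not without set2Δ library A (0.68, adjusted p = 0.0529). The set2-Y149F call did not pass without WT library B (0.42, adjusted p = 0.0881) or set2-Y149F library A (0.49, adjusted p = 0.0567). The calls in set2Δ and set2-Y236F passed whichever of the libraries was left out.

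snR83 had 55.8 and 60.7 FPKM in set2Δ, 56.0 and 63.7 in set2-Y149F, 82.1 and 61.3 in set2-Y236F, against 33.9 and 23.4 in WT. It stood about as high in all mutants, at differences of 1.02 ± 0.19, 1.06 ± 0.19 and 1.30 ± 0.19, each called, also without any 1 library. snR82, another pseudouridylation guide, had 42.4 and 42.9 FPKM in set2Δ, 49.7 and 48.8 in set2-Y149F, 71.6 and 76.4 in set2-Y236F, against 39.4 and 33.3 in WT. It was called higher in set2-Y236F (1.01 ± 0.09, adjusted p = 0.000278) and set2-Y149F (0.43 ± 0.09, adjusted p = 0.0077, but not without WT library B, at 0.32, adjusted p = 0.0578), and in set2Δ its difference of 0.23 ± 0.09 was not called. Its protein-coding neighbour upstream, LSG1, was at -0.29, -0.54 and -0.68 in the order set2Δ, set2-Y149F and set2-Y236F, so that this pair did not move together. The gene downstream, USE1, was at -0.17, 0.39 (called) and 0.20.

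snR36 had 10.8 and 11.0 FPKM in set2Δ, 7.01 and 3.52 in set2-Y149F, 11.0 and 8.08 in set2-Y236F, against 4.85 and 1.25 in WT. GSP2, the gene upstream of snR36, was at 0.34 in set2Δ, 0.46 in set2-Y149F (called) and 0.49 in set2-Y236F (called). The differences of snR36, 1.71 ± 0.43 in set2Δ and 1.52 ± 0.43 in set2-Y236F, were called, and its WT value rests on 19 and 4 reads. The set2Δ call did not pass without WT library B (1.02, adjusted p = 0.0868), set2Δ library A (1.72, adjusted p = 0.0817) or set2Δ library B (1.70, adjusted p = 0.0998), nor the set2-Y236F call without WT library B (0.83, adjusted p = 0.107) or set2-Y236F library A (1.32, adjusted p = 0.0984). snR5 was called in set2-Y236F and not in the other mutants, at 44.9 and 47.8 FPKM there against 28.4 and 21.9 in set2Δ, 32.1 and 24.7 in set2-Y149F, and 20.7 and 27.0 in WT. The difference from WT was 0.94 ± 0.17 (adjusted p = 0.00461), and set2Δ was below set2-Y236F as well (-0.87 ± 0.17, called, though not without set2Δ library B, at -0.69, adjusted p = 0.0556).

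Several abundant H/ACA RNAs showed smaller increases. snR30, which is needed for 18S rRNA processing, had 48.8 and 57.2 FPKM in set2Δ, 39.5 and 34.6 in set2-Y149F, 52.4 and 55.6 in set2-Y236F, against 30.1 and 41.3 in WT. It was called in set2Δ (0.57) and set2-Y236F (0.60), though the first not without WT library A (0.35, adjusted p = 0.136) or set2Δ library B (0.46, adjusted p = 0.148), and the second not without WT library A (0.38, adjusted p = 0.0869) or set2-Y236F library B (0.56, adjusted p = 0.066). The guides snR11, snR37, snR49 and snR9 were called in set2Δ at 0.36 to 0.60 and in set2-Y236F at 0.57 to 0.78. Of these, snR11 and snR37 were also called in set2-Y149F, at 0.39 and 0.41. In the order set2Δ, set2-Y149F and set2-Y236F, GSM1, upstream of snR37, was at 0.31, 1.26 and 0.66. RPL36A, upstream of snR11, was at -0.42, -0.52 and -0.31. The WT means of snR11, snR37, snR49 and snR9 were 26.2, 20.3, 66.0 and 26.9 FPKM. Their set2-Y236F calls passed whichever library was left out, whereas each of the set2Δ and set2-Y149F calls failed without at least 1 library, at 0.27 to 0.52. snR31 was called in set2-Y236F alone (0.58 ± 0.18), with 54.8 and 75.4 FPKM there and 36.2 and 50.5 in WT, and not without WT library A (0.34, adjusted p = 0.208) or set2-Y236F library B (0.35, adjusted p = 0.181). snR86, the longest H/ACA RNA of the sheet at 1004 bases, differed by 0.21 in set2Δ (not called), 0.20 in set2-Y149F and 0.31 in set2-Y236F (both called). The first of these calls failed without any 1 library, at 0.19 to 0.21, and the second without WT library A (0.30, adjusted p = 0.0635) or WT library B (0.32, adjusted p = 0.0569). snR33, with 64.5 and 78.8 FPKM in WT, differed by -0.18, 0.04 and -0.07 and was not called.

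Among H/ACA members named after their values were seen, snR35 (0.44, 0.30 and 0.97), snR10 (0.47, 0.54 and 0.91) and snR34 (0.22, 0.47 and 0.89) had their highest level in set2-Y236F. snR35 was called in set2Δ and set2-Y236F, snR10 in both point mutants and snR34 in set2-Y236F, and of these calls those of snR10 and snR35 in set2-Y236F passed whichever library was left out. snR85 was called in set2Δ (0.93, but not without WT library B, at 0.79, adjusted p = 0.0513) and set2-Y236F (0.75, but not without WT library B, at 0.61, adjusted p = 0.0743, without set2-Y236F library A, at 0.54, adjusted p = 0.0538, or with voom, adjusted p = 0.0639).

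The genes for the proteins of H/ACA particles did not show the increase of their RNAs. Of CBF5 (the pseudouridine synthase), NHP2, NOP10 and GAR1, 0 were higher in any mutant. In set2Δ 1 of 4 was lower, in set2-Y149F 4 of 4 and in set2-Y236F 3 of 4, against 16.8%, 23.2% and 21.9% of all rows. CBF5, for example, had 336 and 344 FPKM in set2Δ, 275 and 205 in set2-Y149F, 291 and 338 in set2-Y236F, against 441 and 406 in WT. The assembly factor NAF1, which loads H/ACA proteins on the nascent RNA, was not called (0.41 in set2Δ, 0.12 and 0.03 in the point mutants).

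The box C/D snoRNAs moved less as a class. Of 45, 3 were higher and 3 lower in set2Δ, 3 higher and 2 lower in set2-Y149F, while set2-Y236F had 9 higher and 2 lower, with medians of 0.08, 0.07 and 0.10. The shares higher were 6.67%, 6.67% and 20%, against 11.1%, 18.1% and 16.0% of all rows, so that only the last was above its background, and not far above it. They took 98.6 and 96.8 reads per 1000000 in set2Δ, 102 and 82.6 in set2-Y149F, 116 and 95.1 in set2-Y236F, against 76.5 and 86.5 in WT, so that set2-Y149F library B overlapped the WT. All 4 genes of the core C/D proteins, NOP1 (the methyltransferase fibrillarin), NOP56, NOP58 and SNU13, were lower in set2-Y149F, 3 in set2-Y236F and 2 in set2Δ. Of all rows, 23.2%, 21.9% and 16.8% were lower in that order. NOP1 had 100 and 78.7 FPKM in set2Δ, 54.8 and 40.9 in set2-Y149F, 50.5 and 53.7 in set2-Y236F, against 132 and 135 in WT.

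snR57, which guides methylation of 18S rRNA, went opposite ways in the deletion and the point mutants. It had 12.3 and 20.9 FPKM in set2Δ, 56.6 and 53.5 in set2-Y149F, 51.2 and 57.1 in set2-Y236F, against 32.2 and 37.4 in WT, with no overlap between the WT and any mutant. The differences were -1.06 ± 0.20 in set2Δ (adjusted p = 0.00779), 0.65 ± 0.20 in set2-Y149F (adjusted p = 0.0347) and 0.62 ± 0.20 in set2-Y236F (adjusted p = 0.0423). Set2Δ differed from set2-Y149F by -1.71 ± 0.20 and from set2-Y236F by -1.69 ± 0.20, both called. The set2Δ call did not pass without WT library B (-0.96, adjusted p = 0.0544). The increases in the point mutants were not called once any 1 of their own or the WT libraries was left out, at 0.54 to 0.75 in set2-Y149F and 0.52 to 0.73 in set2-Y236F.

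snR57 heads an array with snR55 and snR61, RNAs cut from 1 precursor. In set2Δ, set2-Y149F and set2-Y236F snR55 differed from WT by -0.25, 0.30 and -0.09, and snR61 by 0.54, 0.37 and -0.42, and neither was called. The change of snR57 was thus not seen in the others of its array, each of which had fewer than 20 reads per library. The gene upstream, RPS25B, was at -0.45, -0.61 (called) and -0.41.

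snR70 was lower in all 3 mutants. It had 20.5 and 22.7 FPKM in set2Δ, 19.7 and 23.2 in set2-Y149F, 21.5 and 25.4 in set2-Y236F, against 30.6 and 36 in WT, a guide of 18S rRNA methylation in an array with snR41 and snR51. The differences of -0.60, -0.61 and -0.49 (SE 0.13 each) were called. With voom only set2-Y149F passed (adjusted p = 0.0392), and set2Δ (adjusted p = 0.0676) and set2-Y236F (adjusted p = 0.1) did not. The calls failed in set2Δ without WT library B (-0.49, adjusted p = 0.0855) or set2Δ library A (-0.53, adjusted p = 0.0684), in set2-Y149F without WT library B (-0.50, adjusted p = 0.0541), and in set2-Y236F without WT library B (-0.37, adjusted p = 0.123) or set2-Y236F library A (-0.37, adjusted p = 0.0909). snR41 had 31.6 and 31.5 FPKM in set2Δ, 36.3 and 27.9 in set2-Y149F, 35 and 27.1 in set2-Y236F, against 41.1 and 43.6 in WT. It differed by -0.41, -0.40 and -0.45, of which only the set2-Y236F value was called (not without WT library A, at -0.49, adjusted p = 0.108, WT library B, at -0.40, adjusted p = 0.173 or set2-Y236F library B, at -0.27, adjusted p = 0.218), and snR51 by 0.10, -0.09 and -0.23. No C/D RNA encoded in an array was called higher in set2Δ, where 2 of 16 were lower, against 11.1% and 16.8% of all rows. In set2-Y149F 1 of the 16 was higher and 1 lower, against 18.1% and 23.2% of all rows. In set2-Y236F 2 were higher and 2 lower, against 16.0% and 21.9%.

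snR13, a guide for large-subunit rRNA, was called only in set2-Y236F (0.68), where its libraries had 90.0 and 56.3 FPKM against 48.0 and 40.7 in WT, and not without WT library A (0.79, adjusted p = 0.0704), WT library B (0.56, adjusted p = 0.17) or set2-Y236F library A (0.34, adjusted p = 0.156). snR17a, a U3 RNA that acts in the first cuts of pre-rRNA, had 34.8 and 48.6 FPKM in set2Δ, 46.2 and 35.5 in set2-Y149F, 49.7 and 45.6 in set2-Y236F, against 21.5 and 33.9 in WT. It was called in set2-Y236F (0.79 ± 0.23), though not without WT library A (0.48, adjusted p = 0.158), set2-Y236F library A (0.73, adjusted p = 0.0963) or set2-Y236F library B (0.85, adjusted p = 0.0661). snR4, which directs acetylation of 18S rRNA, had 63.7 and 51.6 FPKM in set2Δ, 49.0 and 39.8 in set2-Y149F, 67.7 and 77.7 in set2-Y236F, against 51.7 and 54.6 in WT, and was called in set2-Y236F (0.44), though not without WT library A (0.40, adjusted p = 0.138), WT library B (0.48, adjusted p = 0.0896) or set2-Y236F library B (0.34, adjusted p = 0.147). snR76 differed by -0.16 to 0.06 and was not called in any mutant.

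Of C/D members named after their values were seen, snR45, the other acetylation guide, was called higher in every mutant (0.70, 0.64 and 0.52), though voom called none of these, and the last not without WT library A (0.53, adjusted p = 0.0523) or WT library B (0.52, adjusted p = 0.0569). snR40 was higher in set2-Y149F (1.09) and set2-Y236F (1.15), where it had 12.1 to 14.5 FPKM against 3.83 and 7.61 in WT. snR63 was called in set2Δ (0.53) and set2-Y236F (0.42).

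Of the snoRNAs, 8 are encoded in introns, and the mature RNA is released from the spliced intron of a host gene. A read over such a row that comes from host RNA still holding the intron cannot be told apart from a read of the snoRNA. snR24, a guide for 25S rRNA, had 3.49 and 4.72 FPKM in set2Δ, 4.78 and 3.08 in set2-Y149F, 9.20 and 12.4 in set2-Y236F, against 8.36 and 12.8 in WT. These rest on 6 to 20 reads. Set2Δ and set2-Y149F were below both WT libraries and set2-Y236F was among them, at -1.16 ± 0.25 (adjusted p = 0.0129), -1.22 ± 0.25 (adjusted p = 0.00666) and 0.04 ± 0.25 (adjusted p = 0.909). The difference between set2-Y149F and set2-Y236F was itself called (-1.27 ± 0.25, adjusted p = 0.0417). With voom the difference of set2-Y149F from WT passed (adjusted p = 0.0451). That of set2Δ from WT (adjusted p = 0.0827) and that between the point mutants (adjusted p = 0.105) did not. The set2Δ call failed without WT library B (-0.89, adjusted p = 0.0815) or set2Δ library A (-0.99, adjusted p = 0.0717), and the call between the point mutants without set2-Y149F library B (-1.02, adjusted p = 0.236) or set2-Y236F library B (-1.07, adjusted p = 0.173). The host ASC1, a ribosome-bound WD-repeat protein, was at -0.25, -0.38 and 0.03 and not called.

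The host of snR44, RPS22B, had 326 and 304 FPKM in set2Δ, 208 and 180 in set2-Y149F, 267 and 315 in set2-Y236F, against 262 and 267 in WT. Its differences of 0.25, -0.45 and 0.13 were called in set2-Y149F alone, where it was lower while snR44 was higher. snR191, in the intron of NOG2, had 5.85 and 10.7 FPKM in set2Δ, 3.88 and 2.84 in set2-Y149F, 6.54 and 6.04 in set2-Y236F, against 4.58 and 4.35 in WT. It was not called against the WT, and set2Δ exceeded set2-Y149F (1.05 ± 0.24, called, though not without set2Δ library B, at 0.66, adjusted p = 0.0576, or set2-Y149F library B, at 0.88, adjusted p = 0.102). NOG2 itself was lower than WT in set2-Y149F (-0.99, called). The other hosted RNAs, snR18 (EFB1), snR38 (TEF4), snR39 (RPL7A), snR54 (IMD4) and snR59 (RPL7B), were not called in any mutant, although TEF4 and IMD4 were lower in both point mutants.

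**Figure D3:**
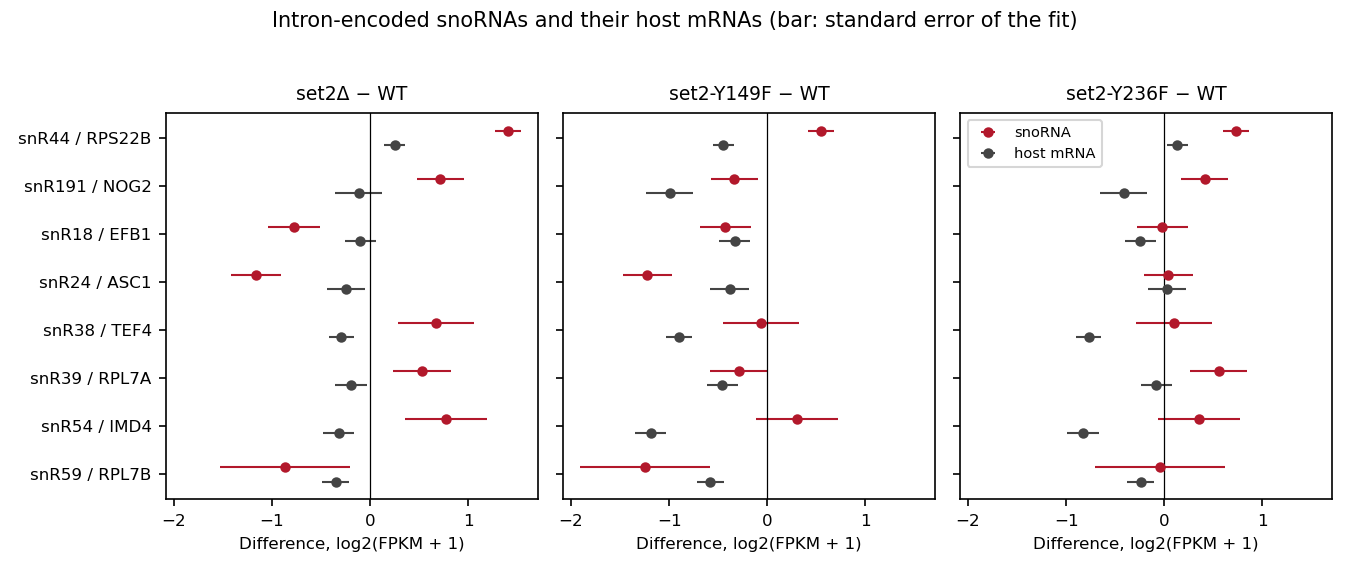
Difference from WT on the scale of log2(FPKM + 1) (x axis) for the 8 snoRNAs encoded in introns (red) and the rows of their host genes (dark). Panels are set2Δ, set2-Y149F and set2-Y236F, and bars are the SE of the fit. snR44 lies right of 0 in every panel at 1.41, 0.55 and 0.73 while RPS22B lies at 0.25, -0.45 and 0.13.

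NME1, the RNA of RNase MRP, which cuts pre-rRNA in the first internal transcribed spacer, was higher in every mutant. It had 19.6 and 18.5 FPKM in set2Δ, 14.8 and 16.0 in set2-Y149F, 25.3 and 25.9 in set2-Y236F, against 10.1 and 9.68 in WT, with no overlap between strains. The differences were 0.88 ± 0.09 (adjusted p = 0.000534), 0.59 ± 0.09 (adjusted p = 0.00192) and 1.29 ± 0.09 (adjusted p = 0.000125), and each passed whichever library was left out. Set2-Y149F was below set2-Y236F (-0.70 ± 0.09, adjusted p = 0.0291), a call that did not pass without set2-Y149F library B (-0.76, adjusted p = 0.182) or set2-Y236F library B (-0.68, adjusted p = 0.101).

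RPR1, the RNA of RNase P, which trims the 5′ end of tRNA precursors, had 32.2 and 24.9 FPKM in set2Δ, 27.2 and 23.6 in set2-Y149F, 34.4 and 38.4 in set2-Y236F, against 17.4 and 18.0 in WT. The differences of 0.65, 0.49 and 1.00 (SE 0.13 each) were all called, that of set2-Y236F without any 1 library too. The set2Δ call failed without WT library A (0.63, adjusted p = 0.0577) or set2Δ library A (0.47, adjusted p = 0.05), and the set2-Y149F call without WT library A (0.47, adjusted p = 0.0872), WT library B (0.52, adjusted p = 0.069) or set2-Y149F library A (0.39, adjusted p = 0.0917). Of the 11 genes for proteins of RNase P and RNase MRP, most of them shared by both enzymes, 0 were higher in any mutant. In set2Δ, set2-Y149F and set2-Y236F 5, 5 and 2 were lower, against 16.8%, 23.2% and 21.9% of all rows. The set2-Y236F count thus lay under its background. POP8, a subunit of both enzymes, was at -1.12, -1.57 and -1.20. PXP1, the protein-coding gene upstream of RPR1 on the same strand, was at 0.59, 0.62 and 0.57, called higher in each mutant. Its part in the level of RPR1 was not tested.

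TLC1, the template RNA of telomerase and itself polyadenylated in part, had 88.2 and 93.1 FPKM in set2Δ, 73.6 and 67.8 in set2-Y149F, 98.7 and 91.4 in set2-Y236F, against 87.5 and 81.2 in WT. It was lower in set2-Y149F (-0.25 ± 0.08, adjusted p = 0.0405), and not called in set2Δ (0.10) or set2-Y236F (0.17). The direct difference of set2-Y149F from set2-Y236F was called too (-0.42 ± 0.08, adjusted p = 0.0417). The first did not pass with voom (adjusted p = 0.148) or without WT library A (-0.20, adjusted p = 0.209), WT library B (-0.31, adjusted p = 0.0809) or set2-Y149F library B (-0.19, adjusted p = 0.199), and the second failed whichever library was left out, at -0.48 to -0.36. Among the telomerase proteins, EST2, the reverse transcriptase, was called higher in set2Δ (0.73), where TLC1 was not.

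SCR1 is the scaffold RNA of the particle that targets secretory proteins to the endoplasmic reticulum. It had 104 and 130 FPKM in set2Δ, 83.3 and 82.9 in set2-Y149F, 97.2 and 116 in set2-Y236F, against 42.0 and 91.1 in WT. WT library B lay among the mutants and WT library A well below them. The differences of 0.90, 0.42 and 0.77 were not called (adjusted p = 0.0573, 0.293 and 0.0767), although voom called set2Δ (adjusted p = 0.0142) and set2-Y236F (adjusted p = 0.0224). Of the 6 SRP protein genes none was higher and 2, 1 and 1 were lower, against 16.8%, 23.2% and 21.9% of all rows lower.

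**Figure D4:**
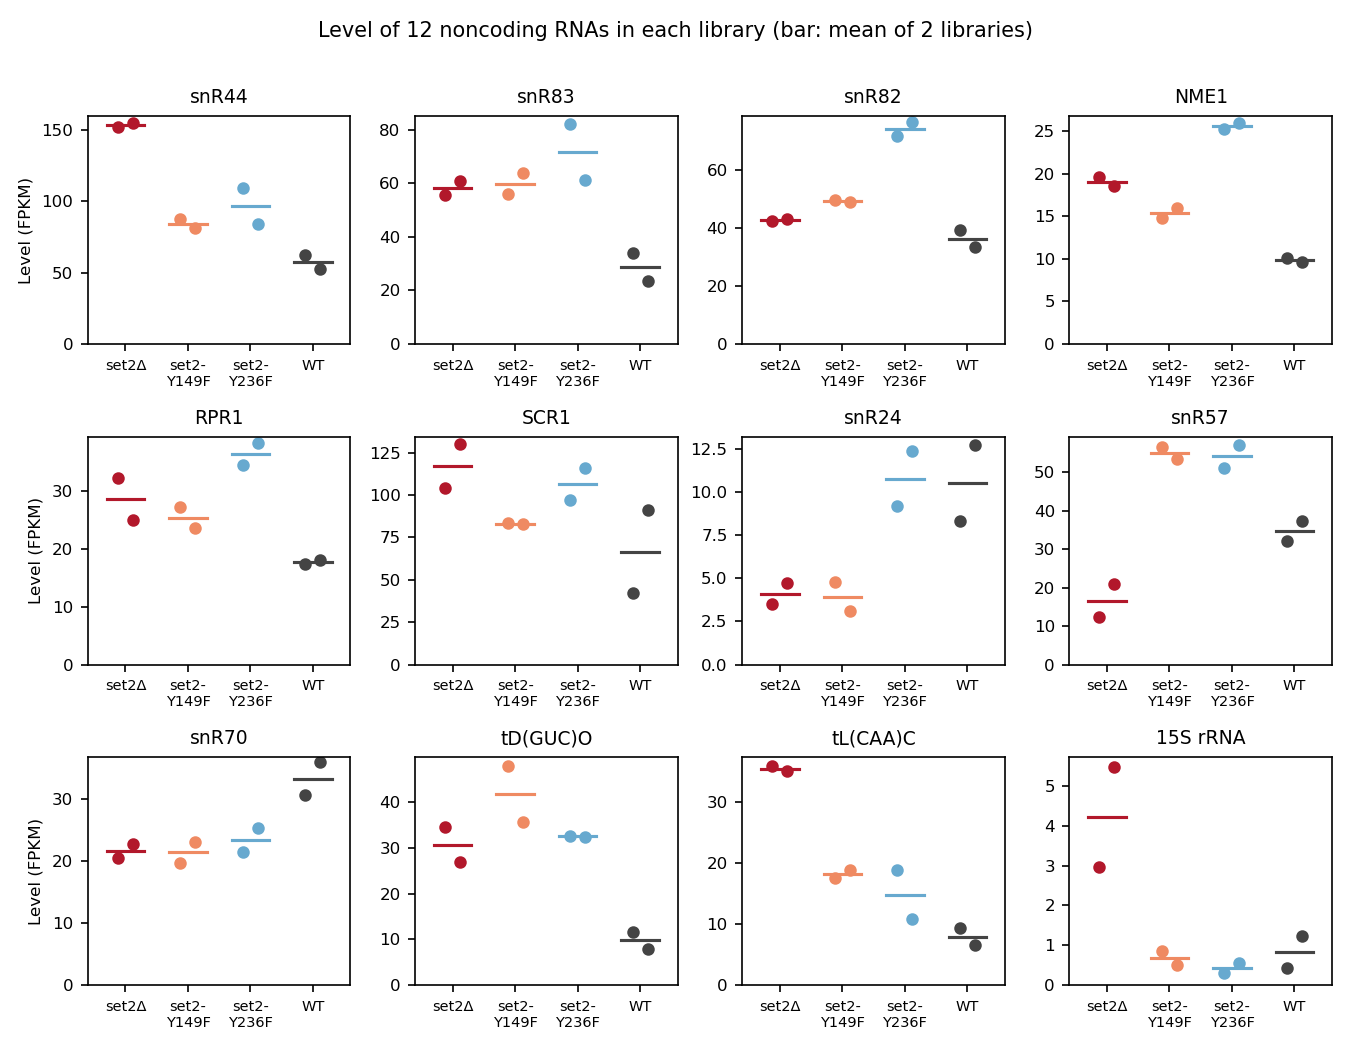
FPKM (y axis, from 0, scaled per panel) of 12 noncoding RNAs in the 2 recovered libraries of set2Δ, set2-Y149F, set2-Y236F and WT (x axis), with points for libraries and a line for their mean. NME1 lies between 14.8 and 25.9 FPKM in the mutants and at 10.1 and 9.68 in WT, snR57 lies below the WT in set2Δ and above it in the point mutants, and the WT libraries of SCR1 lie at 42.0 and 91.1.

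The 4 spliceosomal RNAs had medians of 0.50, 0.29 and 0.74 in the order set2Δ, set2-Y149F and set2-Y236F. Of the 4, 1 was called higher in set2Δ and 1 in set2-Y236F, against 11.1% and 16.0% of all rows. These are too few members to read as a result on the class. LSR1 had 164 and 163 FPKM in set2Δ, 147 and 111 in set2-Y149F, 144 and 125 in set2-Y236F, against 97.6 and 128 in WT. It was called in set2Δ (0.54 ± 0.16, adjusted p = 0.041) but not without WT library A (0.35, adjusted p = 0.218), set2Δ library A (0.53, adjusted p = 0.13) or set2Δ library B (0.55, adjusted p = 0.14), and not in set2-Y149F (0.19) or set2-Y236F (0.26). The authors' list of antisense transcripts holds one (chrII:681245-681992, plus strand) that covers 52.6% of LSR1. snR19, the U1 RNA, had 17.1 and 22.5 FPKM in set2Δ, 18.2 and 18.8 in set2-Y149F, 23.8 and 25.7 in set2-Y236F, against 10.6 and 18.4 in WT, and was called in set2-Y236F (0.78 ± 0.22) but not without WT library A (0.41, adjusted p = 0.117), set2-Y236F library A (0.83, adjusted p = 0.0622) or set2-Y236F library B (0.73, adjusted p = 0.0967). The U6 RNA snR6 and the U4 RNA snR14 had means of 15.9 and 3.63 reads per library and were not called. Of the 15 genes of Sm and Lsm proteins, which bind these RNAs, 0, 1 and 1 were higher and 2, 3 and 2 lower. Of all annotated rows, 11.1%, 18.1% and 16.0% were higher and 16.8%, 23.2% and 21.9% lower, so that the counts lower did not stand out. SME1 was lower in all 3 mutants (-0.42, -0.47 and -0.59).

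The 6 copies of 5S rRNA lie in the rDNA region, where RDN5-2 to RDN5-5 are identical in sequence, as are RDN5-1 and RDN5-6. Reads among identical copies cannot be assigned, and the repeats of the array are collapsed in the reference. The copies spanned 33.9 to 39.1 FPKM in set2Δ library A and 64.4 to 82.0 in library B, 23.9 to 34 and 9.07 to 16.5 in set2-Y149F, 11.4 to 20.6 and 12.9 to 29.9 in set2-Y236F, against 16.1 to 25.7 and 46.3 to 74.1 in WT. In set2Δ and in WT library B was well above library A for these copies. None of the 6 was called against the WT in any mutant, at medians of 0.48, -0.86 and -0.94. RDN5-3 was called higher in set2Δ than in set2-Y236F (1.48 ± 0.46, adjusted p = 0.0457), but not once any 1 library of either was left out (1.13 to 1.83, adjusted p = 0.0799 to 0.203).

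The nuclear tRNA rows rest on the fewest reads, and only 7 of 61 had a mean of 10 or more. The names give the amino acid, the anticodon and the chromosome. In all, set2Δ had 8 higher and 4 lower, set2-Y149F had 14 and 2, and set2-Y236F had 10 and 4, with medians of 0.24, 0.53 and 0.29. The shares higher, 13.1%, 23% and 16.4%, stood near those of all rows (11.1%, 18.1% and 16.0%), and the shares lower, 6.56%, 3.28% and 6.56%, were under those of all rows (16.8%, 23.2% and 21.9%). Summed over the class, tRNAs took 18.8 and 17.9 reads per 1000000 in set2Δ, 20.2 and 19.5 in set2-Y149F, 17.6 and 16.8 in set2-Y236F, against 10.0 and 12 in WT. Both WT libraries were below all mutant libraries.

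tD(GUC)O had 34.5 and 27.0 FPKM in set2Δ (48 and 37 reads), 47.9 and 35.6 in set2-Y149F, 32.7 and 32.3 in set2-Y236F, against 11.6 and 7.88 in WT (18 and 10 reads). It was higher by 1.57 ± 0.20, 2.00 ± 0.20 and 1.66 ± 0.20, or 3.15-, 4.28- and 3.33-fold, called in each also without any 1 library. The rows tD(GUC)D and tD(GUC)M have the same 72 bases, and over the 8 libraries each had 0 to 6 reads, so that reads assigned to 1 of these identical genes are uncertain.

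tL(CAA)C had 35.8 and 35 FPKM in set2Δ, 17.5 and 18.9 in set2-Y149F, 18.9 and 10.7 in set2-Y236F, against 9.38 and 6.47 in WT. It was higher by 2.05 ± 0.24 (adjusted p = 0.00102), 1.12 ± 0.24 (adjusted p = 0.0077) and 0.79 ± 0.24 (adjusted p = 0.0318), and set2Δ exceeded both point mutants (0.92 ± 0.24 and 1.25 ± 0.24, both called). The call against set2-Y149F failed whichever library of either was left out (0.87 to 0.97, adjusted p = 0.0836 to 0.127), and that against set2-Y236F without set2Δ library A (1.24, adjusted p = 0.0539). Against the WT, the set2-Y149F call failed without WT library B (0.89, adjusted p = 0.0512), and the set2-Y236F call without WT library B (0.56, adjusted p = 0.177) or set2-Y236F library A (0.42, adjusted p = 0.13). Its gene lies 351 bases upstream of LEU2, the marker of pRS415, on the same strand. LEU2 had 6231 and 5815 FPKM in set2Δ, 1787 and 1763 in set2-Y149F, 1855 and 1925 in set2-Y236F, against 3325 and 3093 in WT. BY4741 lacks LEU2, and the methods name no plasmid for the WT, so that the source of LEU2 RNA in the WT libraries is not known. LEU2 was highest in set2Δ like tL(CAA)C, but lower in the point mutants than in WT, and its part in the result was not tested.

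Other tRNA rows with large differences had few reads, so that reads are given. tD(GUC)I1 had 6 and 6 reads in set2Δ, 2 and 4 in set2-Y149F, 3 and 0 in set2-Y236F, against 0 and 0 in WT, and was called in set2Δ and set2-Y149F. tR(ACG)D had 1 and 1 reads in set2Δ, 5 and 3 in set2-Y149F, 4 and 10 in set2-Y236F, against 0 and 1 in WT, and was called in set2-Y149F and set2-Y236F. tG(GCC)F2 had 10 and 6 reads in set2-Y149F against 1 and 1 in WT (called), with 3 and 2 in set2Δ and 2 and 1 in set2-Y236F. tS(AGA)J had 6 and 2 in set2-Y149F against 0 and 0 in WT (called). Of these calls, those of tR(ACG)D in set2-Y236F and tG(GCC)F2 passed whichever library was left out.

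In the other direction, tL(UAG)L1 had 2 and 1 reads in set2-Y149F, against 9 and 7 in WT, and was called lower there (-1.62 ± 0.27). It had 9 and 4 reads in set2Δ and 7 and 5 in set2-Y236F. tV(AAC)L had 2 and 1 reads in set2Δ, 0 and 0 in set2-Y149F, 2 and 1 in set2-Y236F, against 4 and 4 in WT, and was called lower in each. At such depths a single read moves the level by a large share, and voom called tV(AAC)L in set2-Y149F only, the strain whose call alone passed whichever library was left out. Named after their values were seen, tE(UUC)G1 and tG(GCC)D2 had more reads, and were called in every mutant at 0.88 to 1.34 and at 1.04 to 1.08. Without WT library A, tG(GCC)D2 was called in none of the mutants (0.63 to 0.66) and tE(UUC)G1 in set2-Y149F alone (0.95).

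The mitochondrial rRNAs were higher than in WT in set2Δ. 15S rRNA had 2.98 and 5.47 FPKM in set2Δ, 0.851 and 0.499 in set2-Y149F, 0.310 and 0.557 in set2-Y236F, against 0.423 and 1.24 in WT. 21S rRNA had 3.88 and 5.63 FPKM in set2Δ, 1.69 and 1.45 in set2-Y149F, 1.58 and 1.64 in set2-Y236F, against 1.75 and 2.85 in WT. The differences of 1.51 ± 0.31 (adjusted p = 0.0101) and 0.81 ± 0.22 (adjusted p = 0.0293) were called, and set2Δ also exceeded set2-Y149F and set2-Y236F in both. Against set2-Y149F neither passed without set2-Y149F library B (adjusted p = 0.0648 for 15S and 0.0598 for 21S), and against set2-Y236F 21S did not pass without set2Δ library B (adjusted p = 0.052). The 15S call failed without WT library A (1.18, adjusted p = 0.0636) or set2Δ library B (1.16, adjusted p = 0.0736), and the 21S call without WT library A (0.56, adjusted p = 0.163) or set2Δ library B (0.58, adjusted p = 0.171). The mitochondrial protein-coding rows took 18.9 and 24.2 reads per 1000000 in set2Δ, 13.3 and 8.51 in set2-Y149F, 19.4 and 16.1 in set2-Y236F, against 12.8 and 13.0 in WT. Of the mitochondrial tRNA rows, tM(CAU)Q2 was called in set2Δ and set2-Y149F, on 2 and 2 and on 4 and 3 reads against 0 and 0 in WT. The set2Δ call failed whichever library was left out (adjusted p = 0.115 to 0.136) and with voom (adjusted p = 0.0725), and the set2-Y149F call passed in each case.

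Regulatory long noncoding RNAs act mostly by being transcribed across the promoter or the body of a neighbour, and few of them differed. ICR1, transcribed over the promoter of the adhesin gene FLO11 208 bases before it, had 12.3 and 13.9 FPKM in set2Δ, 12.1 and 13.3 in set2-Y149F, 11.7 and 11.9 in set2-Y236F, against 11.1 and 11.6 in WT, and was not called (0.19, 0.15 and 0.06). FLO11 had 10.9 and 10.4 FPKM in set2Δ, 5.36 and 7.74 in set2-Y149F, 5.79 and 4.31 in set2-Y236F, against 6.18 and 4.74 in WT, and was called in set2Δ (0.86). PWR1, made from the opposite strand of ICR1, had 5 and 6 reads in set2Δ, 9 and 1 in set2-Y149F, 2 and 2 in set2-Y236F, against 0 and 1 in WT, and was not called.

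SRG1 is transcribed through the promoter of the serine synthesis gene SER3 and is known to repress it. SRG1 had 43.3 and 38.3 FPKM in set2Δ, 28.7 and 24.4 in set2-Y149F, 33.3 and 28.7 in set2-Y236F, against 36.7 and 31.5 in WT. It was not called against the WT (0.25, -0.35 and -0.13), and set2Δ exceeded set2-Y149F (0.60 ± 0.12, called, though not without set2Δ library A, at 0.52, adjusted p = 0.0914, or set2-Y149F library B, at 0.49, adjusted p = 0.0782). SER3 had 112 and 99.9 FPKM in set2Δ, 99.4 and 106 in set2-Y149F, 61.2 and 82.6 in set2-Y236F, against 257 and 288 in WT, and was lower in every mutant (-1.36, -1.40 and -1.92).

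RUF5-1 and RUF5-2 are identical 710-base RNAs antisense to the metallothionein genes CUP1-1 and CUP1-2, a tandem repeat whose copy number can vary between strains. RUF5-1 had 1.68 and 2.00 FPKM in set2Δ, 2.82 and 2.19 in set2-Y149F, 4.18 and 3.62 in set2-Y236F, against 3.67 and 4.24 in WT. RUF5-1 and RUF5-2 were lower in set2Δ (-0.80 ± 0.16 and -0.97 ± 0.19), where RUF5-2 had 1.82 and 1.55 FPKM against 3.99 and 4.56 in WT, and RUF5-1 in set2-Y149F too (-0.50 ± 0.16). The set2Δ call of RUF5-1 failed without WT library B (-0.72, adjusted p = 0.0722) or set2Δ library A (-0.72, adjusted p = 0.0536), that of RUF5-2 without WT library B (-0.90, adjusted p = 0.0649) or set2Δ library B (-0.90, adjusted p = 0.0618), and the set2-Y149F call of RUF5-1 without WT library A (-0.59, adjusted p = 0.0826), WT library B (-0.42, adjusted p = 0.189) or set2-Y149F library B (-0.37, adjusted p = 0.199). The sense genes CUP1-1 and CUP1-2 were at -0.82 and -0.85 in set2Δ and were not called.

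HRA1, antisense to the flippase gene DRS2, differed by 0.45, -0.16 and 0.18 and was not called against the WT. RUF20, RUF21 and RUF23 were not called in any mutant either. RNA170, an RNA polymerase III transcript, had 8.26 and 9.01 FPKM in set2Δ, 9.06 and 14.6 in set2-Y149F, 13.3 and 16.3 in set2-Y236F, against 16.5 and 14.1 in WT. It was lower in set2Δ (-0.76 ± 0.20, adjusted p = 0.0282), a call that voom did not make (adjusted p = 0.105) and that no fit with 1 library left out kept (adjusted p = 0.0718 to 0.137).

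The point mutants, compared with each other, differed in few members. Set2-Y149F was higher than set2-Y236F in 2 and lower in 9 of 164, against 2.47% and 0.950% of all rows. The 9 were snR4, snR8, snR24, snR35, snR78, snR82, NME1, TLC1 and tL(UAG)L1, at -1.39 to -0.42, and the 2 were tG(GCC)F2 and tK(UUU)K. Adjusted p-values lay between 0.0291 and 0.0417, and none of the 11 calls passed whichever library was left out. With no mean-variance trend in the fit, none of the 6632 rows was called, and voom called 3 of the 9, snR4, snR82 and NME1. Over the members the median difference was -0.07, and over the H/ACA RNAs -0.37, with 5 of 29 above 0.

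Set2Δ was higher than set2-Y149F in 15 members and lower in 9, against 12.1% and 14.7% of all rows, and higher than set2-Y236F in 8 and lower in 22, against 14.1% and 15.0%. Of the H/ACA RNAs, 7 were lower in set2Δ than in set2-Y236F and 1, snR44, was higher. Of the 24 and 30 calls of set2Δ against set2-Y149F and set2-Y236F, 2 and 5 passed whichever library of either strain was left out, snR57 among them in both.

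The proteins that terminate, tail and trim these RNAs were read as a list of 16 genes. In set2Δ 1 was higher and 1 lower, while the point mutants set2-Y149F and set2-Y236F had 5 and 4 lower and none higher, not far from the 23.2% and 21.9% lower among all rows. SEN1, the helicase that acts with Nrd1 and Nab3 in ending snoRNA transcription, had 55.4 and 54.6 FPKM in set2Δ and 34.5 and 36 in WT (0.63, called). NRD1 was lower in set2-Y149F (-0.55) and set2-Y236F (-1.0), with 35.8 and 25.0 FPKM in set2-Y236F against 61.1 and 61.0 in WT. RRP6, the nuclear exosome nuclease that trims snoRNA tails, was lower in both point mutants (-0.46 and -0.36) and not called in set2Δ (-0.20). Their part in the levels of the noncoding RNAs was not tested.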

How the data were processed

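Per the labels, 12 libraries of polyadenylated RNA from 4 strains (3 each) were made with a strand-specific dUTP kit. In their processing notes the submitters list HTSeq 0.13.5, Cuffdiff, Cufflinks 2.2.1, TopHat2 2.1.1, Trimmomatic 0.38, SAMtools 1.10 and bedtools 2.29.2, with sacCer3 as the build; which of these computed the FPKM values of genes was not stated. The authors deposited FPKM as 1 mean per strain and, in another sheet, a scaled mean signal per row, from which the gene length behind each FPKM was taken. The transcript starts, ends and widths deposited by the authors gave the overlap with LSR1. Columns of the authors' own comparisons (fold changes, p-values) were not used, nor were FPKM of antisense transcripts.

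Mean FPKM times length was solved for whole reads of 2 libraries (relative tolerance 3e-14), with 1 solution in 6632 of 6632 rows per strain. The third library of each strain was not analysed here. The 2 libraries of a strain differed beyond counting noise (chi-square per degree of freedom 13.3 to 48.3). The recovered FPKM were tested with limma 3.58.1 in R 4.3.3 on log2(FPKM + 1), pseudocount 1, with a mean-variance trend, all 4 strains in 1 fit, Benjamini-Hochberg over 6632 rows and no filter. On simulated data 197 of 200 changed rows of set2Δ against WT were recovered among 6632, with 11 false calls. The changed rows were drawn from rows with many reads only, with a fixed fold and a fixed spread. The recovery therefore does not apply to rows of few reads or to smaller changes. Depth on annotated rows was 17122394 to 23220184 reads a library, and a row of few reads is measured poorly. Python 3.11.15 with pandas 2.3.3 did the rest.

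Members and lists were chosen with earlier results of these data known. The text names the 30 members with the highest level in any strain and the 10 with the largest difference from the WT, 39 in all; members beyond these were named after their values were seen. Alternatives were other pseudocounts (0.1 and 10), filters, scaling, RefSeq matches by symbol only, and leaving out each library. Chosen after seeing the data were voom on the reads, a minimum of 10 reads, no trend, and the contrasts of set2Δ with the point mutants.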

Additional observations from a re-analysis of the deposited data

How the results depend on the processing

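No call of a member against the WT or between mutants changed direction under the alternatives named here. The numbers of members higher and lower, in the order set2Δ, set2-Y149F and set2-Y236F against WT and set2-Y149F against set2-Y236F, were 28 and 10, 27 and 6, 40 and 6, and 2 and 9. With voom they were 18 and 4, 16 and 4, 28 and 0, and 0 and 3, and with voom and a mean of at least 10 reads per library 19 and 4, 12 and 2, 26 and 0, and 0 and 3. With that minimum alone, which left 94 members, they were 23 and 6, 17 and 5, 32 and 2, and 0 and 7. Among the 103 members matched to RefSeq by symbol, which hold no nuclear tRNA, they were 20 and 6, 13 and 4, 30 and 2, and 0 and 8. With no mean-variance trend the last comparison had 0 and 0, and with a mean of at least 1 FPKM 1 and 9. Set2Δ against set2-Y149F and set2-Y236F, run under the same alternatives after seeing the data, had 15 and 9, and 8 and 22. With voom these were 11 and 5, and 6 and 10, and with voom and 10 reads 12 and 1, and 5 and 8. With 10 reads alone they were 14 and 3, and 6 and 15. Among the RefSeq matches by symbol they were 12 and 2, and 4 and 16. Pseudocounts of 0.1 and 10 and scaling to the same median left every count within 1.5 times.

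Leaving out 1 library at a time, the lone library being assumed to vary like the others, gave 10 to 27 higher and 2 to 8 lower in set2Δ, 16 to 23 and 3 to 14 in set2-Y149F, 23 to 33 and 1 to 8 in set2-Y236F, and 0 to 7 and 0 to 12 between the point mutants. It gave 1 to 18 and 2 to 4 for set2Δ against set2-Y149F, with the fewest higher without set2-Y149F library B, set2Δ library A (4) and set2Δ library B (8), and the fewest lower without set2Δ library A. It gave 3 to 16 and 8 to 21 for set2Δ against set2-Y236F, with 3 and 8 without set2Δ library A, 9 lower without set2Δ library B, 11 lower without set2-Y236F library B and 16 higher without set2-Y236F library A. Without WT library A 12, 17 and 23 were higher, the fewest of set2-Y236F, while the fewest came without set2Δ library B (10) in set2Δ and without its library A (16) in set2-Y149F, and the fewest lower without WT library B (2, 3 and 1). Without set2Δ library A 18 and 3 were called, and without library B 10 and 5. In set2-Y149F, 14 were lower without its library A. Between the point mutants, none was called without library B of either, and 7 and 6 without set2-Y236F library A. Of the 38, 33, 46, 11, 24 and 30 calls, 7, 12, 18, 0, 2 and 5 were kept whichever library was left out.

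No paired analysis was possible because the recovered libraries carry no replicate number.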
